A study of Mus musculus with 8 samples.

Results

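The clustered protocadherins form 3 gene arrays, alpha, beta and gamma, that lie side by side on mouse chromosome 18. They were taken here as the 25 genes on this chromosome whose symbols begin with Pcdha, Pcdhb or Pcdhg in the GENCODE M1 annotation, of 37273 annotated genes. For each annotated transcript start, a window was drawn from 1 kb before to 3 kb after it, and starts of a gene within 1 kb of each other shared a window. This gave 41 windows of 55206 in the genome, 10 for alpha, 22 for beta and 9 for gamma, and no 2 of the 41 overlapped. On the mm9 assembly and the plus strand, the alpha starts ran from position 37089939 to 37303623, the beta starts from 37424652 to 37678007 and the gamma starts from 37833989 to 37979200. The annotation files nearly all alpha starts under the gene record Pcdha11 and all gamma starts under Pcdhgc5. Windows of these records are therefore called by the annotation's transcript name, such as Pcdha11-204, which does not say which variable exon of the array the start belongs to.

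Clustered protocadherins are cadherin-like adhesion proteins, best known as a cell surface code by which neurons tell their own branches from those of other cells. Each alpha and gamma variable exon has its own promoter and is spliced to constant exons shared by its array, whereas each beta gene is a single coding exon. Neurons express a few variable exons each, CTCF and cohesin link the chosen promoters to distant enhancers, and DNA methylation of the variable exons accompanies promoters that are not in use.

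The data were reduced representation bisulfite sequencing (RRBS) of liver DNA, in which MspI cuts at CCGG and a cytosine's methylation level is the percentage of its reads that stay unconverted. There was 1 female and 1 male each of C57BL/6J (B6), DBA/2J (DBA), BXD (mother B6, father DBA) and DXB (mother DBA, father B6), 8 mice in all. The mice were 16 weeks old and had been fasted for 16 h. Each strain and sex was 1 mouse, so the female and the male of a strain were its only replicates, and whole liver does not separate cell types.

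Between 527351 and 1227747 CGs per library had at least 10 reads, and 295 (DBA male) to 658 (B6 female) of them lay in protocadherin windows. Where a read held a SNP, the authors had assigned it to a B6 or a DBA chromosome. Over the protocadherin region, 99.4% of sorted calls in the B6 female were B6, as were 0.436% and 0.422% in the DBA female and male and 56.7% to 62.2% in the 4 F1 mice. The library labelled B6 male stood apart, with 82.3% B6 calls. The strain difference of the called window, the directions of windows and CGs and the calls of sorted CGs by the rule for sets are therefore also given without it. Other counts over all mice include it, and the comparisons of the male parents rest on it.

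The restriction sites reached the 3 arrays unequally. Of 741 CG positions with a read in the windows, each strand counted apart, 720 had 10 reads in at least 1 mouse and 124 had 10 reads in all 8. These 124 comprised 61 alpha, 11 beta and 52 gamma CGs in 16 windows, and 8 windows had at least 5 of them. No CG with 10 reads was found in any mouse in 14 windows, 11 of them beta and 3 alpha, although each of these windows held at least 2 CCGG sites. Of the 124 CGs, 113 lay in the coding part of a variable exon, 10 upstream of the start and 1 in a UTR. The levels below are thus mostly those of exon bodies rather than of promoters.

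The beta windows were highly methylated, the alpha windows lay lower, and the gamma windows were the lowest. Over the 11 beta CGs the level was 77.6% ± 4.63 (mean ± SD over mice, n = 8), over the 61 alpha CGs 31.1% ± 3.65 and over the 52 gamma CGs 24.6% ± 1.70. Beta exceeded alpha in 8 of 8 mice, by 42.2 to 49.8 percentage points, and exceeded gamma in 8 of 8 mice, by 46.3 to 60.7 points. Alpha exceeded gamma in 7 of 8 mice, by 6.55 ± 3.80 points on average, and in the DBA male it was lower by 0.835 points. The size of the gap between alpha and gamma depended on which CGs were averaged. With each window weighted equally it was 16.003 ± 3.25 points and at CGs with 5 reads 8.29 points, whereas it was 0.0511 ± 2.61 points at CGs with 20 reads and 1.93 ± 2.35 points in windows that ended 1 kb after the start. Equal weighting gives 1 CG at 92.8%, in the window of Pcdha11-209 and Pcdha11-210, the weight of 1 of 6 alpha windows. The beta level rests on 3 windows and 11 CGs, and at the 15 CGs with 10 reads in the 7 mice other than the B6 male it was 60.4%. The gap to alpha was then 28.2 points, against 46.5 over all 8 mice, and that to gamma 35.4 points, against 53.0.

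Within alpha and gamma, the windows with more than 1 CG ranged from 4.42% to 59.1%. The window Pcdha11-204, the first of the alpha array, had levels of 68.6% and 64.6% in the B6 female and male, 48.5% and 40.2% in their DBA counterparts, 73.5% and 64.8% in the BXD female and male, and 60.4% and 52.5% in the DXB female and male, over 8 CGs. The DBA mice were the lowest of the 8. Further along the array, Pcdha11-208 (8 CGs) averaged 43.3% ± 6.72, Pcdha11-201 (23 CGs) 28.9% ± 4.51 and Pcdha11-202 (18 CGs) 15.8% ± 1.79 over mice. The levels of these 4 windows fell in the order in which they lie on the chromosome, but their CGs lay at different distances from the start. Pcdha11-204 and Pcdha11-208 were measured only from 1 to 3 kb after it. In that part alone the 4 windows had 59.1%, 43.3%, 49.6% (5 CGs) and 44.1% (3 CGs), so the order did not hold there. Of the other alpha windows, Pcdha3 had 12.3% ± 3.19 over 3 CGs and the start shared by Pcdha11-209 and Pcdha11-210 had 92.8% ± 7.86 over 1 CG. That single CG was the highest of the 6 in its window with 10 reads in at least 4 mice, which averaged 52.1%. With Pcdha3 at its place between higher windows, the alpha array as a whole was not graded.

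Pcdhb1, Pcdhb2 and Pcdhb7 were the beta genes with CGs at 10 reads in all 8 mice. Pcdhb1 had 77.9% ± 7.08 over 3 CGs, Pcdhb2 77.7% ± 4.29 over 6 CGs and Pcdhb7 76.8% ± 11.7 over 2 CGs (SD, n = 8). At these CGs the 3 means differed by less than the SD over mice of any of them. At the CGs with 10 reads in at least 4 mice they were apart, with 42.7% over 14 CGs in Pcdhb1, 70.2% over 21 in Pcdhb2 and 76.8% over the same 2 in Pcdhb7. In Pcdhb7 the B6 male (65.7%) and the DBA male (52.7%) were below the other 6 mice, which ran from 77.3% to 86.1%. Another 8 beta genes had CGs with 10 reads in some mice only. By the same measure, Pcdhb14 had 93.3% at 1 CG, Pcdhb17 72.7% over 10, Pcdhb20, a pseudogene in this annotation, 70.7% over 4 and Pcdhb10 68.2% over 5. Pcdhb5 (52.5%, 14 CGs) and Pcdhb12 (41.8%, 4 CGs) were the lowest of these 8, near Pcdhb1, so high methylation was not shared by every covered beta gene.

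In the gamma array, Pcdhgc5-207, the first window, was the highest, with 56.2% ± 3.95 over 9 CGs. The next measured windows, Pcdhgc5-206, Pcdhgc5-210 and Pcdhgc5-204, had 33.4% ± 6.11, 17.3% ± 4.26 and 31.0% ± 6.75 over 3 CGs each. Toward the end of the array, Pcdhgc5-208 had 8.25% ± 1.98 over 20 CGs and Pcdhgc5-205 had 4.42% ± 2.16 over 3 CGs. These 2 windows were low in every mouse, the highest single value being 11.1%. The last window, shared by Pcdhgc5-203 and Pcdhgc5-209, rose again to 31.7% ± 4.46 over 11 CGs. In both arrays with constant exons, the last variable exons are the C-type, whose promoters are regulated apart from the others. Which of the windows are C-type was not assigned here.

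**Figure D1:**
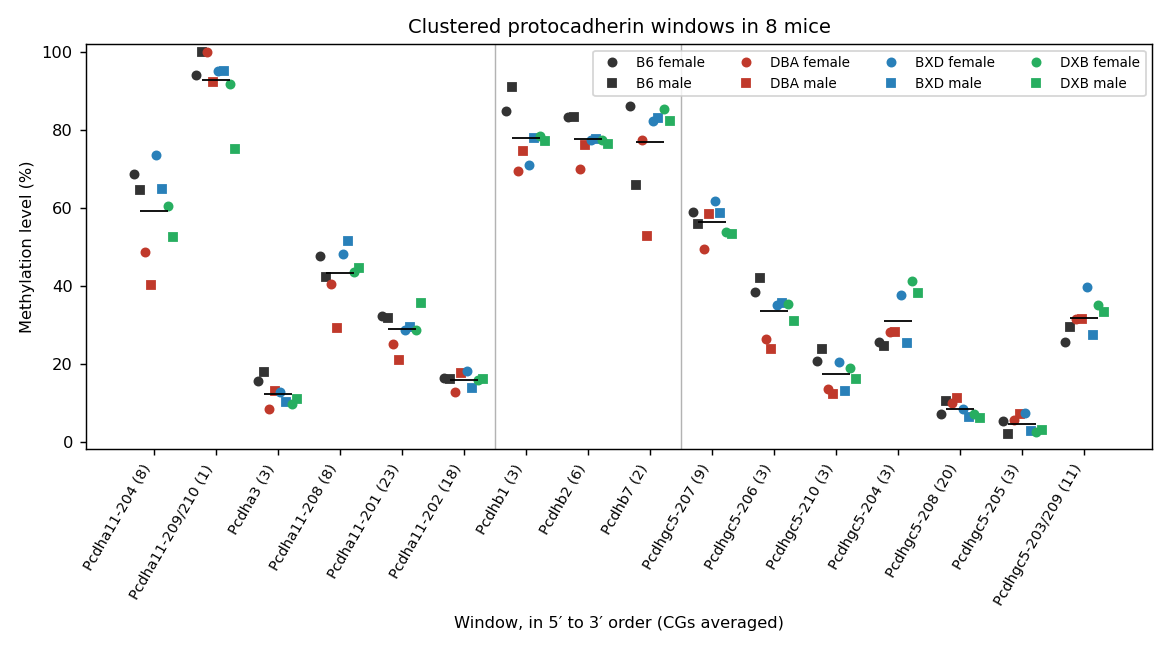
Methylation level in percent (vertical axis) of the 16 clustered protocadherin windows with at least 1 CG at 10 reads in all 8 mice, in 5′ to 3′ order, with the number of CGs in brackets. Each point is 1 mouse, each bar the mean of the 8 mice, and grey lines part the alpha, beta and gamma arrays. The first alpha window averaged 59.1%, the 3 beta windows 76.8% to 77.9%, and Pcdhgc5-205 4.42%.

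Levels varied with the distance from the transcript start in the alpha array. The 8 alpha CGs before a start, all in Pcdha11-201, averaged 7.43% ± 2.04 (SD, n = 8 mice), and the 21 within the first 500 bases averaged 20.4% ± 3.31. The 18 alpha CGs from 2000 to 2500 bases after the start averaged 53.5% ± 8.06. Because these groups of CGs come from different windows, distance and window cannot be told apart in the array as a whole. Within Pcdha11-201 alone the level was 7.43% before the start, 35.9% ± 6.93 in the first kb and 49.6% ± 7.45 from 1 to 3 kb after it, so the rise was also present inside a single window. In Pcdha11-202 the first kb had 10.1% ± 1.76 over 15 CGs, and 3 CGs beyond it had 44.1% ± 5.42. Pcdhgc5-207 likewise went from 33.5% ± 4.43 over 4 CGs in the first kb to 74.4% ± 5.13 over 5 CGs beyond it, whereas Pcdhgc5-208 stayed at 5.05% ± 1.78 and 11.5% ± 2.55.

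**Figure D2:**
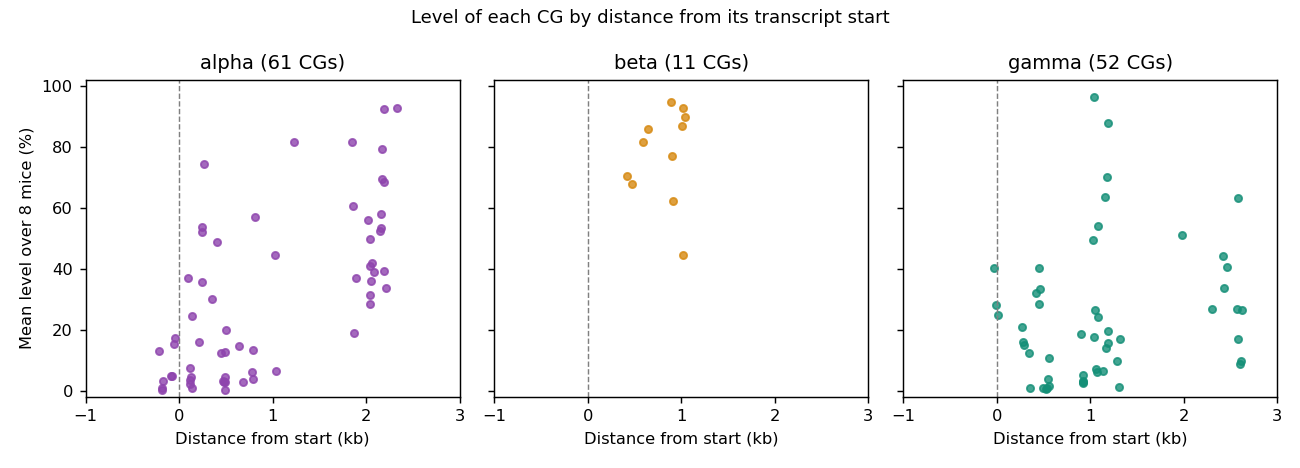
Mean methylation level over 8 mice in percent (vertical axis) of each of the 124 CGs against its distance from the transcript start in kb (horizontal axis), by array. Each point is 1 CG and the dashed line marks the start. Alpha CGs before the start were under 20%, those from 2000 to 2500 bases after it ran from 28.6% to 92.8%, and the lowest beta CG had 44.5%.

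Intermediate methylation was frequent. Of the 124 member CGs, 55 (44.4%) had a mean level from 20% to 80%, against 10.2% of the 88362 CGs measured in all windows and 18.6% of all 176951 CGs. In single mice the share was 38.7% to 47.6% for the members and 7.83% to 19.01% for all windows, and it was higher for the members in 8 of 8 mice. The 2 highest shares in all windows were those of the B6 male (19.01%) and the DBA male (18.5%). Of the 16 windows, 10 averaged 20% to 80%, 5 lay below and 1 above, where 17.7% of the 15373 windows of the genome with a measured CG were intermediate. The Hox genes, which encode the transcription factors of the body axis and also form clusters, averaged 8.23% ± 1.48 over 342 CGs. The members were higher than Hox in 8 of 8 mice, by 24.3 ± 2.98 points. Vomeronasal type 1 receptor genes, the other tandem family compared, had 1 CG in all 8 mice, at 95.2% ± 2.72.

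The levels of single CGs also varied among mice. The SD over 8 mice had a median of 7.47 points at the member CGs, 7.81 in alpha, 7.46 in beta and 7.15 in gamma, against 3.502 at all CGs. The size of this contrast varied with the level. From 20% to 80% the median SD was 10.5 points for members and 9.14 for all CGs, although from 20% to 40% it was 9.67 and 9.76 points. The CGs from 20% to 80% had a median of 86 and 77 reads. Reads drawn at a fixed level would give a median SD of 5.56 points at the former CGs and 6.37 at the latter. Below 20% the medians were 4.07 and 1.51 points, and above 80% they were 8.07 and 3.57 points. Levels were not matched inside these ranges. The 3 member windows with the largest SD were Pcdhb7 (11.7 points), Pcdha11-204 (11.2) and the start shared by Pcdha11-209 and Pcdha11-210 (7.86). The largest SD of a single CG was 19.7 points, 2153 bases after the start of Pcdha11-204.

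The first comparison of the design is that of the 2 parent strains. Alpha and beta were higher in B6 than in DBA in both sexes, and the gamma means differed by less than 1 point at the CGs measured in all 8 mice. The alpha mean was 34.5% and 33.2% in the B6 female and male and 26.9% and 24.3% in the DBA female and male, and the 4 F1 mice ran from 31.0% to 34.2%. The beta mean was 84.2% and 82.2% in B6 and 71.1% and 71.4% in DBA, with the F1 mice from 76.5% to 79.0%. In alpha the 2 DBA mice were below the other 6, and in beta the F1 mice lay between the parents without overlap. The gamma mean differed by 0.222 points in the female pair and 0.0268 points in the male pair. This order rested on the CGs averaged, since over the 232 gamma CGs with 10 reads in both female parents B6 minus DBA averaged -1.28 points.

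Of the 16 windows, 9 were higher in B6 in both the female and the male pair, 4 were higher in DBA in both, and 3 differed in direction between the pairs. In 8 windows both B6 mice exceeded both DBA mice, against 10.7% of all windows with a measured CG and 16.7% of those with a mean level from 20% to 80%. These 8 were Pcdha11-204, Pcdha3, Pcdha11-208, Pcdha11-201, Pcdhb1, Pcdhb2, Pcdhgc5-206 and Pcdhgc5-210. The reverse held in 3 windows, against 8.46% of all windows. Without the library labelled B6 male, the B6 female was above both DBA mice in 10 windows, against 19.7% of all windows, and below both in 4, against 28% of all windows. The 4 windows higher in DBA in both pairs were Pcdhgc5-204 and the last 3 of the gamma array, so direction differed along the arrays. Of the 16 windows, 10 had an F1 mean between the parental means, against 26.7% of all windows, a share not matched for level.

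**Figure D3:**
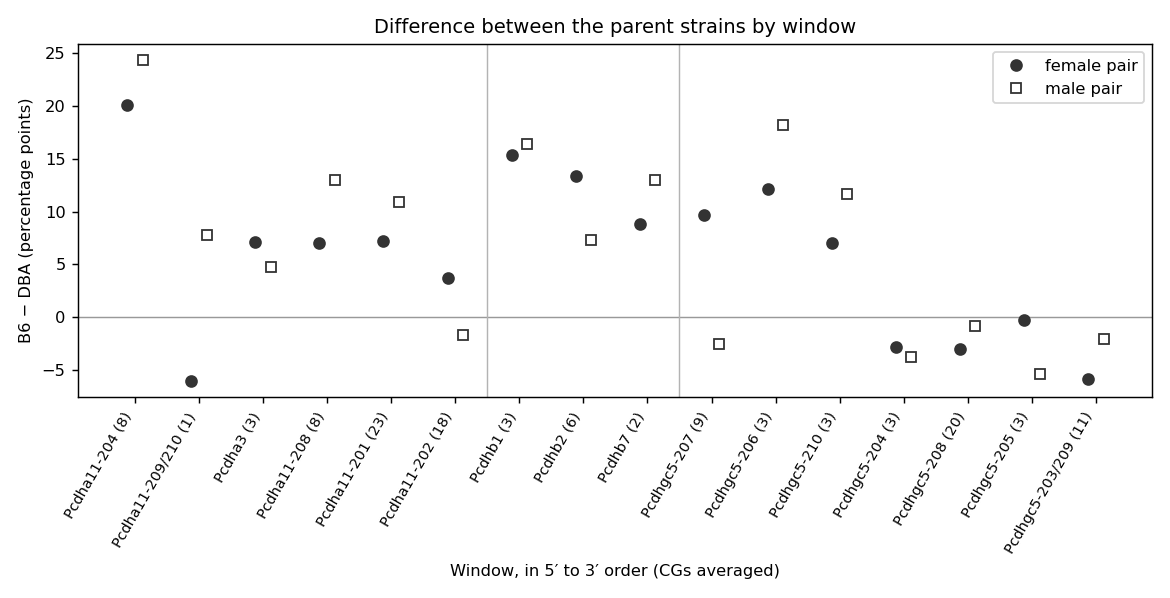
Difference in methylation level between B6 and DBA in percentage points (vertical axis) for the 16 windows in 5′ to 3′ order, with the number of CGs in brackets. Filled circles are the female pair, open squares the male pair, and the horizontal line marks no difference. Pcdha11-204 differed by 20.1 and 24.4 points, and the last 4 gamma windows lay below 0 in both pairs.

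Windows with at least 5 CGs were tested with limma over the 8 mice, adjusted over 8466 windows, of which 0.602% were called for strain, 0.354% with B6 higher. Of the 8 member windows 1 was called. Pcdha11-204 was higher in B6 by 22.2 points (SE 3.24, adjusted p = 0.000111 with limma), and both B6 mice exceeded both DBA mice. Its 8 CGs lie from 2045 to 2195 bases after the start, in the coding exon. At 5 of them the library labelled B6 male had 70 reads each and 0 sorted to B6. In this window 1 DBA library was shallow. The mean number of reads per CG was 10.6 in the female DBA mouse and 365 in the male, and 12.6 to 122 in the F1 mice. Without the DBA female the difference was 22.9 points and without the library labelled B6 male 20.1 points. Each of these fits left a parent strain with 1 mouse, so only the difference is given. The window was not called in the fit to all windows with at least 1 CG (adjusted p = 0.248 with limma), on the logit scale (0.527), in a quasi-binomial model of the counts (0.9999) or as a slope on the number of B6 chromosomes (0.299). It could not be tested at 20 reads.

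The remaining 7 windows did not pass. Pcdhb2 differed by 10.3 points (SE 2.61, adjusted p = 0.0724 with limma), with 83.3% and 83.4% in the B6 mice, 69.95% and 76.1% in the DBA mice and 76.3% to 77.6% in the F1 mice. At 2 of the 6 CGs of this window the library labelled B6 male had 0 reads sorted to B6. Pcdhb2 passed at CGs with 20 reads (10.3 points, adjusted p = 0.00469 with limma), where Pcdha11-204 was not tested. At 10 reads the difference of Pcdhb2 was 16.6 points without the DBA male and 7.14 without the DBA female. It was 9.44 points without the B6 female and 11.2 without the library labelled B6 male. Each of these fits left a parent strain with 1 mouse, so only the difference is given. The fit takes this difference from the parent mice alone, so leaving out an F1 mouse could not change it at the same 6 CGs. Pcdhb1, with too few CGs for the fit to all mice, entered without the DBA female. With 1 DBA mouse left, it was 12.9 points higher in B6. Pcdha11-208 differed by 9.99 points (SE 3.87, adjusted p = 0.858) and Pcdha11-201 by 9.04 points (SE 3.68, adjusted p = 0.993), both higher in B6 with limma. Each DBA mouse moved these values, to 15.5 and 12.3 points without the DBA female and to 4.51 and 5.79 points without the DBA male. The estimates of Pcdhgc5-207 and Pcdha11-202 were 3.55 and 1.01 points, and those of Pcdhgc5-208 and the last gamma window -1.88 and -3.95 points. That of Pcdhgc5-207 was 9.18 points without the DBA male and 1.06 points without the B6 female. At an unadjusted p below 0.05 with limma there were 4 member windows, against 3.04% of all windows.

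Single CGs were compared between 2 libraries at a time, which compares those mice and not the strains. Under the rule for parents, a CG needs 10 reads in both mice, levels outside each other's 95% interval and a difference above 50 points. Of the CGs of the female parents 0.549% were called, 0.498% with B6 higher, and of the 452 member CGs among them 3, all higher in B6. Of the CGs of the male parents 0.423% were called and of 214 member CGs 0. With Fisher's exact test, adjusted over all CGs, 17 of the 452 were called in the female pair (13 higher in B6), against 1.42% of all CGs (1.07% with B6 higher), and 16 of the 214 in the male pair (15 higher in B6), against 0.958% (0.582%). Among these 15 were the CGs at 2153, 2158, 2166 and 2168 bases in Pcdha11-204. There the library labelled B6 male had 70 reads each and 0 sorted to B6. The calls of both pairs coincided at 2 of the 188 CGs measured in all 4 parents. Among all CGs measured in all 4 parents, 0.369% were called in both. Of the 188 CGs, 82 were higher in B6 in both pairs, against 17.4% of all such CGs, and 27 higher in DBA in both, against 16.5%. The shares over all CGs in this paragraph are not matched for level. In the male pair 96658 of all 323010 CGs were equal, against 24 of the 214 member CGs. In the alpha array, 104 of 155 CGs were higher in B6 in the female pair and 70 of 93 in the male pair, and in beta 54 of 65 and 16 of 20 were. In gamma 91 of 232 and 33 of 101 were, or 39.2% and 32.7%, near the 40.8% and 32.9% of all CGs that were higher in B6 in these pairs. Without the library labelled B6 male, 219 member CGs could be compared, and the B6 female was above both DBA mice at 100, against 23.9% of all such CGs, and below both at 31, against 18.9%.

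The 3 CGs called in the female pair lay in coding exons. The first, at position 37897807 in Pcdhgc5-210, 1217 bases after the start, was methylated in 77.3% of 66 reads in the B6 female (exact 95% interval 65.3% to 86.7%). The DBA female had 0 of 44 reads methylated, which allows a level of up to 6.82%. The B6 male had 67.9% and the F1 mice 78.9%, 41.3%, 66.7% and 78.6%, all far above the DBA female, and the DBA male had no reads. The CG in Pcdhb12 at position 37595817 had 70% in the B6 female and 16.7% in the DBA female, but the DBA male had 44.7%, with 30, 12 and 123 reads. The CG in Pcdha11-201 at position 37249879 had 56.3% in the B6 female and 0 of 11 reads in the DBA female, which allows up to 27.3%. Counting error alone is thus wide for the last 2 CGs, and Fisher's exact test with adjustment called the CG of Pcdhgc5-210 and neither of these.

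Several member CGs read exactly 0 in DBA. In the female pair 6 CGs were at 0 in DBA and at 20% or more in B6, against 0.463% of all CGs, and none the other way round, which held for 0.0701% of all CGs. Among the 6 were the CGs at 1125, 1175 and 1217 bases in Pcdhgc5-210. Each had 0 of 44 reads methylated in the DBA female, so they need not be independent. At 2 others, in Pcdha11-201, the DBA female had 11 and 15 reads. A base change that removes the C of a CG in DBA would read as 0, and its part in these values was not tested. At 450 bases after the start of Pcdhgc5-207 the level was 30.6% and 45.9% in the B6 female and male, 0% and 0% in the DBA mice (of 150 and 58 reads, which allow up to 2% and 5.17%), 34.1% and 25% in the BXD mice, and 41.8% and 50.8% in the DXB mice. The 2 DBA mice stood apart from the other 6. This was 1 of the 2 CGs that Fisher's exact test called in both pairs. The other, 249 bases after the start of Pcdha11-201, had 68.2% and 58.3% in the B6 mice and 34.2% and 30.1% in the DBA mice, with 49.1% to 67.0% in the F1 mice. When single CGs were tested over the 8 mice with limma, 0 of 124 member CGs and 0 of 176951 CGs in all passed, and 18 of the 124 had an unadjusted p below 0.05, against 5.71% of all CGs.

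Reads sorted by SNP show the B6 and DBA chromosomes apart, also inside the F1 mice, as up to 12 chromosome sets. At least 3 sets of each strain had 10 sorted reads at 28 member CGs in 7 windows. Under the rule for sets (more than 50 points apart, and p below 0.05 in the study's test) 5.02% of all sorted CGs were called and 0 of the 28. Without the library labelled B6 male, 5.57% of all sorted CGs were called and 0 of 27 member CGs. With limma, adjusted over all sorted CGs, 3 of the 28 were called, all higher on B6 chromosomes, against 9.19% of all sorted CGs (7.26% with B6 higher). The share of the members, 10.7%, was thus near that of all sorted CGs. In 16 of the 28 the B6 chromosomes were higher, or 57.1%, against 49.0% of all sorted CGs, and the median difference was 1.48 points, against 0 over all sorted CGs.

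The 3 called CGs were in the gamma array. In an exact permutation test over the sets they had p = 0.00952, 0.0190 and 0.0571, in the order given below. Adjusted over the 28 member CGs these were 0.263, 0.263 and 0.32 in that test, and 0 of the 28 passed. With so few sets at a CG, the smallest p that this test can give is limited. At 603 bases after the start of Pcdhgc5-207 the B6 sets averaged 83.3% ± 8.22 (SD, n = 6) and the DBA sets 63.8% ± 7.86 (n = 4), a difference of 19.5 points (adjusted p = 0.0449 with limma). At 631 bases in the same window they averaged 94.4% ± 5.67 and 70.9% ± 14.2 (adjusted p = 0.0457 with limma). In the 3 F1 mice with both chromosomes covered, the B6 chromosome was higher at both CGs. Without the library labelled B6 male the differences at these CGs were 21.3 and 23.1 points. This fit takes the B6 and the DBA chromosomes of an F1 mouse as separate units although they share the animal. With the mouse as a block, limma called the same 3 member CGs (adjusted p = 0.0408 at 603 bases and 0.0436 at 631 bases), against 9.5% of all sorted CGs (7.44% with B6 higher). At 913 bases in Pcdhgc5-210 the B6 sets had 37.5%, 23.1% and 30% and the DBA sets 0 of 224 reads over 4 sets, which allows a level of up to 1.34% (adjusted p = 0.00216 with limma). Whether a base change in DBA removes the C of this CG was not tested.

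In Pcdha11-204, the window called for strain, the B6 and the DBA sets averaged 72.5% and 71.5% over the 5 CGs with sorted reads. The B6 chromosomes averaged 76.0% in the B6 female, 64.1% in the BXD female and 77.3% in the BXD male. The DBA chromosomes averaged 63.6% and 52.8% in the DBA female and male, but 94.8%, 70.7% and 75.4% in the BXD female, BXD male and DXB female. The DBA chromosomes were thus higher in each of these 3 F1 mice than in either DBA mouse, with 23, 58 and 13 reads per CG in the F1 mice. The difference at its single CGs was -10.9 to 17.3 points and none was called. At these 5 CGs the B6 male had 70 reads each and 0 sorted to B6. At the CG 2153 bases after the start, all 46 reads of the B6 female were sorted to B6 and all 477 of the DBA male to DBA. In Pcdhb2, over 2 CGs with sorted reads, the DBA sets were the higher ones at both, with 78.2% against 74.6% on average, and neither CG was called. Inside the F1 mice the DBA chromosome was higher in 3 of 4, with 74.7% against 68.1% in the BXD female, 84.3% against 71.9% in the BXD male and 88.3% against 68.2% in the DXB male, and lower in the DXB female, with 75.7% against 81.2%. The parents went the other way, with 83.4% in the B6 female and 72.1% and 74.0% in the DBA female and male. The B6 male had 243 and 210 reads at these 2 CGs and 0 sorted to B6.

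**Figure D4:**
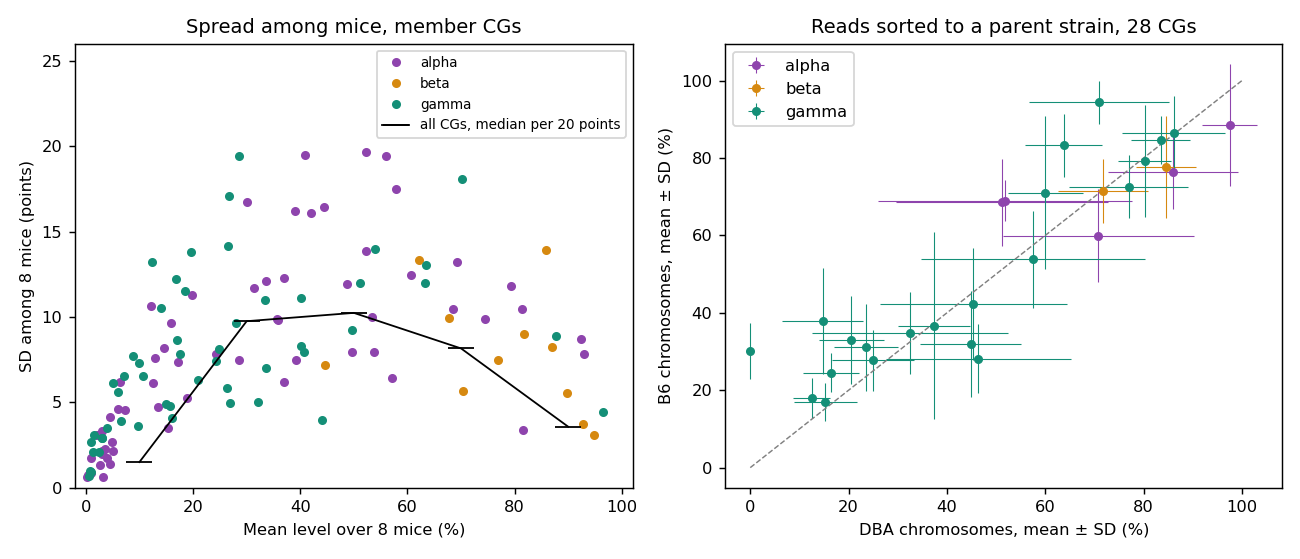
Left, SD among 8 mice in percentage points (vertical axis) against mean level in percent for the 124 member CGs, coloured by array, with the median SD of all CGs per 20 points of level as a black line. Right, mean level in percent of the B6 chromosome sets against that of the DBA sets for the 28 CGs with sorted reads, with bars of 1 SD over sets and a dashed line of equality. Below 20% the members' median SD was 4.07 points against 1.51 for all CGs, not matched for level inside that range, and 16 of the 28 CGs lay above the line of equality.

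The other comparisons of the design found no member windows. For sex, limma called 1.77% of all windows and 0 of the 8 member windows, of which 1 had an unadjusted p below 0.05 (5.8% of all). That window was Pcdha11-204, higher in females by 7.24 points (SE 2.29, adjusted p = 0.169 with limma). In the fit without the DBA female, Pcdhb1 was called, lower in females by 8.15 points (adjusted p = 0.0110 with limma), so this call depended on leaving out 1 library. Of 257 member CGs tested for sex, 0 passed the study's rule, where 0.148% of all CGs did, and limma called 0 (0.059% of all) and gave 11 an unadjusted p below 0.05 (5% of all).

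F1 mice against parents gave 0 of the 8 member windows with limma (0.461% of all), with 2 at an unadjusted p below 0.05 (6.86% of all), and the direction of the cross gave 0 of the 8 (0.0118% of all), with 1 at an unadjusted p below 0.05 (1.17% of all). The largest estimates were again in Pcdha11-204. Its F1 mice exceeded the parents by 7.32 points (SE 2.29, adjusted p = 0.296 with limma), and BXD exceeded DXB by 12.6 points (SE 3.24, adjusted p = 0.631 with limma). Their unadjusted p with limma was 0.00336 and 0.000522, so neither passed once adjusted over 8466 windows.

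Genes related to the arrays were read from the same windows. Of 12 protocadherins outside the clusters, 6 were measured, and their levels ran from 3.47% for Pcdh1 to 17.0% for Pcdh19, with a median of 6.78%. Of their 10 tested windows 0 were called for strain, and 2 were called for sex, both of Pcdh19, an X-linked adhesion gene. In the larger of these, with 14 CGs, females ran from 23.9% to 31.9% and males from 3.34% to 8.35% (22.3 points, SE 2.36, adjusted p = 7.74e-08 with limma). Of 16 regulators of the arrays or of DNA methylation, 12 were measured, with a median of 3.53%. Ctcf, which binds the variable exons' promoters, had 1.48%, the cohesin genes Rad21, Smc3 and Stag1 had 3.90%, 4.31% and 1.69%, and Smchd1, a chromosomal protein that represses the arrays, had 2.24%. None of the 10 tested windows of regulators was called in any comparison. Markers of cell types were too sparsely covered to check the tissue. Of 10 hepatocyte genes 3 were measured (Apob, Hnf4a and Pck1, 21.3% to 33.0%), of 6 neuronal genes 5 (7.15% to 20.4%) and of 4 blood genes 0.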

How the data were processed

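RRBS libraries of 8 mouse livers were analysed. The authors digested DNA with MspI, aligned reads to mm9 with BS Seeker, kept unique alignments and assigned reads that hold a SNP to B6 or DBA. The authors deposited raw counts per cytosine, methylated and unmethylated, by mouse and class of reads, and methylation levels as a fraction, which were not used. The classes were summed at each CG and strand, and a level was the percentage of methylated reads. For trimming and duplicates the sources used here give nothing.

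The members and gene lists were chosen with earlier results of these data known. Named windows were the highest, the lowest and the most variable ones, those with the largest strain difference, and any window or CG that passed a test. C-type variable exons were to be named as well but could not be assigned. Sequences of the windows are not shown. Tables of the authors' own comparisons were not used. They hold mean fractions, p-values and difference scores for allele-specific, sex-specific and parental sites, and 12 of their columns give values of single mice.

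A CG entered a window mean with at least 10 reads in all 8 mice, and a window was tested with at least 5 such CGs. Windows and single CGs were tested with limma 3.58.1 in R 4.3.3, with terms for strain, F1, cross and sex, and p-values were adjusted over all windows or CGs (Benjamini-Hochberg). The rules for parents, for sex (p below 0.001, above 20 points) and for chromosome sets (p below 0.05, above 50 points) follow the study, and a minimum of 3 mice a sex and 3 sets a strain was added. Means over an array are given without p. Fisher's exact tests were two-sided. Python 3.11.15, numpy 2.4.6, pandas 2.3.3, scipy 1.17.1 and matplotlib 3.10.9 were used. Exact binomial intervals and limits of a count of 0 (3 counts) cover counting error only. Mean coverage of CGs with a read was 40.6 to 81.5 reads per library, and 1 read of 10 is worth 10 points. On simulated windows limma called 92 of 100 differences of 40 points, 60 of 100 of 20 points and 6 of 8266 unchanged windows. The rule for parents called 997 of 1000 changed CGs, the rule for sex 489 of 500 and the rule for sets 500 of 500. How many changed CGs these rules call at the spread of the member CGs was not tested. Alternatives changed the minimum of reads, the window, the strand handling, the scale, the model and the mice.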

Additional observations from a re-analysis of the deposited data

Results flagged for a closer look

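The gamma mean of the BXD female, 28.1%, lay apart from the other 7 mice, which ran from 22.8% to 25.2%. Such a gap is found in about 1 of 20 groups of this size by chance, and 12 sets of values were examined. In the region of the arrays, 17.7% of the sorted calls of the library labelled B6 male were DBA, against 0.617% in the B6 female. In the protocadherin windows alone the share was 28.8%. At the 5 CGs of Pcdha11-204 with sorted reads the B6 male had 70 reads each, and at the 2 of Pcdhb2 it had 243 and 210. At these CGs 0 of its reads were sorted to B6, so its levels there rest on no read sorted to B6. The part of the DBA calls in its other levels was not tested.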

How the results depend on the processing

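No paired analysis was possible because the labels give no replicate numbers. This concerns mice. The chromosome sets of an F1 mouse share that mouse, and a fit with the mouse as a block, chosen after seeing the data, called 3 member CGs.

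The levels of the arrays depended on which CGs were averaged. At 5 reads beta had 59.5% and gamma 22.5%. At 20 reads all members had 29.9%, alpha 25.1%, and alpha exceeded gamma by 0.0511 points. In windows ending 1 kb after the start all members had 22.6%, alpha 16.8% and gamma 14.9%, and alpha exceeded gamma by 1.93 points. Weighting each window equally gave 41.7% for all members and 42.0% for alpha, where 1 CG at 92.8% stood for 1 of the 6 alpha windows. Without the library labelled B6 male beta had 60.4%. At the CGs with 10 reads in both female parents, an alternative chosen after seeing the data, all members had 28.8%, alpha 25.8%, beta 60.6% and gamma 21.9%. Leaving out single mice moved beta between 60.4% and 78.1% and gamma between 22.7% and 26.8%. Such steps change the CGs that qualify, since fewer libraries must reach 10 reads. The libraries also differed in how far from a CCGG site their protocadherin CGs with 10 reads lay. The largest distance was 97 bases in the B6 and DBA females, 96 in the BXD male and 73 in the B6 and DBA males. In the BXD female and the DXB female and male it was 47. CGs with 10 reads in every mouse thus lay within 47 bases of a site. The part of this difference in the comparisons of mice was not tested.

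For strain, 0 member windows were called in windows ending at 1 kb (29 of 7315 windows in all) and with at least 1 CG (21 of 15373). The same held on the logit scale (28 of 8466) and as a slope on B6 chromosomes (15 of 8466). The quasi-binomial model called 0 member windows and 0 windows in all. Leaving out a mouse left its group with 1, so no count is given for strain. For sex, leaving out single mice gave 0 to 1 member windows. In all windows it gave 128 of 8502 (without the BXD female) to 353 of 13127 (without the DBA male). Pcdha11-202 turned in direction on the logit scale (-0.0270), in the quasi-binomial model (-0.0381) and on leaving out mice (-2.18 to 3.37 points), and Pcdhgc5-207 on the logit scale (-0.334) and in the quasi-binomial model (-0.435), with 1.06 to 9.18 points on leaving out mice. Leaving out mice gave -3.16 to 0.117 points for Pcdhgc5-208 and -8.25 to 0.350 for the last gamma window. None of these 4 windows passed the test, and the cause was not tested.

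Member CGs called in the female pair were 5 at 5 reads (0.681% of all CGs), 1 at 20 reads (0.521%), 22 above 30 points (1.6%), 45 above 20 points (3.33%) and 17 with Fisher's exact test (1.42%). In the male pair they were 2 (0.682%), 0 (0.369%), 12 (1.54%), 23 (3.26%) and 16 (0.958%). For chromosome sets 3 were called above 20 points (8.01%) and 3 with limma (9.19%). Of 310 alternatives, 254 kept direction and call or stayed near the main value. Some of these could not move. Leaving out an F1 mouse cannot change a strain difference at the same CGs, and leaving out the B6 male was counted repeatedly for the array levels. The tally is thus no measure of robustness.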

Other observations

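Gamma windows without a CG at 10 reads in all mice were also of intermediate level. At CGs with 10 reads in at least 4 mice, Pcdhgc5-201 had 38.8% over 11 CGs and Pcdhgc5-202 24.1% over 14 CGs. The alpha window Pcdha11-203 had 46.1% over 5 such CGs, which ran from 8.30% to 86.9%.

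The windows differed in base composition as well as in level. Alpha windows had a median ratio of observed to expected CGs of 0.628, beta windows 0.404 and gamma windows 0.474. Over the 16 measured windows the mean level and the GC content had a Spearman rho of -0.576, as a description over windows that share libraries. In the 13 alpha and gamma windows alone, it was -0.456. Level and the ratio of observed to expected CGs had a rho of -0.0385 in those 13 windows.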
